A study of Mus musculus with 2 samples.

Results

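The genes described here are 10 feedback inhibitors of MAP kinase signalling, chosen by symbol: the phosphatase genes Dusp1, Dusp2, Dusp4, Dusp5, Dusp6, Dusp10 and Dusp16 and the Sprouty family genes Spry1, Spry2 and Spred1. They are 10 of 55536 annotated genes, and all 10 were found in the tables. RNA was taken from the nucleoplasmic fraction of primary bone marrow-derived macrophages of strain C57BL/6J that had been given lipid A, the part of lipopolysaccharide sensed by TLR4, at 100 ng/ml for 25 min. Ribosomal RNA was depleted and total RNA was sequenced in 2 libraries, replicates 1 and 2, made from 500 ng and 1 µg of RNA. These form 1 group, with a shared donor entry, and no untreated, later or whole-cell sample was analysed here, so the values are levels after treatment and say nothing of induction. SDs (n = 2) describe the spread between these libraries, which may be technical in part.

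MAP kinases (ERK, JNK and p38) are switched on by phosphorylation of a threonine and a tyrosine, and dual-specificity phosphatases of the DUSP family switch them off by removing both phosphates. Several of these phosphatase genes are themselves transcribed in response to MAP kinase activity, which closes a negative feedback loop, and in macrophages Dusp1 is known for limiting cytokine output after lipopolysaccharide. Sprouty and Spred proteins act further upstream, where they restrain the activation of Ras and Raf.

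The data turn on introns of the genes Dusp1 and Dusp2, so their boundaries are shown first. The windows come from the GENCODE M21 transcripts Dusp1-203, Dusp1-204 and Dusp2-202, which the annotation types as retaining an intron. Each window holds 20 bases on either side of the boundary, 5′ to 3′, with intron bases in capitals and exon bases in lower case.
Dusp1 intron 2, 5′ end: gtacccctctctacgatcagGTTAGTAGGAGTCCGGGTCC
Dusp1 intron 2, 3′ end: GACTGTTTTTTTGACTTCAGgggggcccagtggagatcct
Dusp1 intron 3, 5′ end: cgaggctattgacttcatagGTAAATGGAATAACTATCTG
Dusp1 intron 3, 3′ end: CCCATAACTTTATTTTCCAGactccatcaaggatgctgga
Dusp2 intron 2, 5′ end: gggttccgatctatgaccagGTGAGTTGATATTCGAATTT
Dusp2 intron 2, 3′ end: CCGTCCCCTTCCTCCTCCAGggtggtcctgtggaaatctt

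All 3 of these introns begin with GT and end with AG. Intron 2 of Dusp1 lies at chr17:26507205-26507573 (mm10, minus strand) and has 369 bases. Intron 3 of Dusp1 lies at chr17:26506651-26506984 and has 334 bases. Intron 2 of Dusp2 lies at chr2:127336899-127337248 (plus strand) and has 350 bases. Their GC contents were 50.9%, 46.4% and 47.4%. In both genes intron 2 runs up to exon 3, which has 220 bases, and exon 3 of Dusp4 and of Dusp5 has 220 bases as well. Aligned base by base without gaps, that exon of Dusp1 was 70.5% identical to that of Dusp2, 79.1% to that of Dusp4 and 63.6% to that of Dusp5. Dusp6, Dusp10 and Dusp16 have no exon 3 of that length in the transcripts examined.

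Transcripts of the nuclear phosphatase genes Dusp1 and Dusp2 were abundant, those of Dusp4, Dusp5 and Spred1 were at intermediate levels, and those of Dusp16, Spry2, Dusp6, Spry1 and Dusp10 were low. Dusp1 (ENSMUSG00000024190.7, chromosome 17, 26505590 to 26562128) encodes a nuclear phosphatase of p38, JNK and ERK. Its level was 366 TPM in the first library and 369.6 TPM in the second, a mean of 368 ± 2.74 (SD, n = 2), from 7634 and 12950 estimated counts. TPM is the abundance after division by transcript length, scaled to the same total in each library. That placed Dusp1 above 99.6% and 99.7% of protein-coding genes. In these bulk libraries, fewer cells expressing a gene and less RNA per cell cannot be told apart.

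Dusp2 (ENSMUSG00000027368.6, chromosome 2, 127336159 to 127338376) encodes a nuclear phosphatase found mainly in blood cells. It had 303 and 362 TPM, a mean of 333 ± 41.6 (SD, n = 2), from 4094 and 8855 counts. Dusp1 and Dusp2 together held 83.2% and 86.1% of the counts of the 10 genes. The step to the next gene was the widest in the order: within a library Dusp2 had 19.9 and 19.1 times the TPM of Dusp4.

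Dusp4 and Dusp5 encode the other nuclear phosphatases of the group, of which that of Dusp5 acts on ERK. Dusp4 (ENSMUSG00000031530.6, chromosome 8, 34807297 to 34819894) had 15.2 and 18.9 TPM, from 525 and 1112 counts. Dusp5 (ENSMUSG00000034765.6, chromosome 19, 53529109 to 53542431) had 20.97 and 12.65 TPM, from 648 and 665 counts. Their ranges overlapped, with Dusp5 above Dusp4 in replicate 1 and below it in replicate 2.

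Spred1 (ENSMUSG00000027351.14, chromosome 2, 117121374 to 117182279), whose product brings the Ras inhibitor neurofibromin to the membrane, had 11.8 TPM in each library, from 753 and 1206 counts. It was the highest of the Sprouty family members and in TPM lay below both values of Dusp5. By counts, which are not divided by length, it was above Dusp4 and Dusp5 in both libraries.

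The phosphatases of the cytoplasm, or of both compartments, were lower. Dusp16 (ENSMUSG00000030203.17, chromosome 6, 134715468 to 134792625), which encodes a phosphatase of JNK and p38, had 5.38 and 3.60 TPM from 286 and 332 counts. Dusp6 (ENSMUSG00000019960.8, chromosome 10, 99263231 to 99267489), which encodes the cytoplasmic ERK phosphatase, had 2.14 and 1.73 TPM from 57 and 101 counts. Dusp10 (ENSMUSG00000039384.8, chromosome 1, 184013302 to 184075636), which encodes another phosphatase of p38 and JNK, had 0.510 and 0.230 TPM from 18 and 13 counts. At this depth the last value rests on few reads.

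Of the Sprouty genes proper, whose products block Ras-ERK signalling below growth factor receptors, Spry2 (ENSMUSG00000022114.5, chromosome 14, 105891947 to 105896819) had 2.77 and 1.28 TPM from 71 and 56 counts. Spry1 (ENSMUSG00000037211.12, chromosome 3, 37639947 to 37644598) had 0.490 and 0.620 TPM from 17.2 and 34.3 counts. The ranges of Spry2 and Dusp6 overlapped, as did those of Spry1 and Dusp10 and of Dusp4 and Dusp5, so none of these pairs could be ordered. The remaining neighbours in the order had ranges that did not overlap, although Dusp1 exceeded Dusp2 by only 1.21 and 1.02 times and Dusp5 exceeded Spred1 by 1.78 and 1.07 times. At a threshold of 1 TPM in both libraries, 8 of 10 members were detected, Spry1 and Dusp10 being the exceptions, against 44.5% of all protein-coding genes. At 5 TPM 5 of 10 were detected, Dusp1, Dusp2, Dusp4, Dusp5 and Spred1, against 28.6% of all protein-coding genes. In the table quantified without alignment, 6 of 10 members were detected at 1 TPM, against 7550 of 22028 protein-coding genes. There Spry2 and Dusp6 also fell short, at 0.350 and 0.381 TPM in replicate 2.

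**Figure D1:**
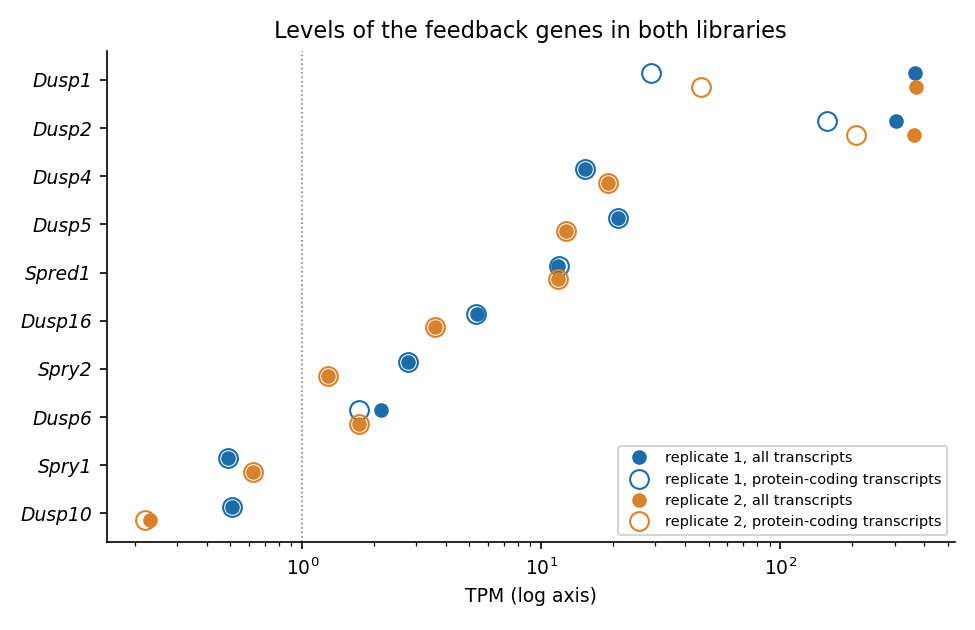
TPM on a log axis for each gene (rows, by falling mean) in replicate 1 (blue) and replicate 2 (orange), with filled points for all transcripts, open circles for transcripts typed protein-coding and a dotted line at 1 TPM. Dusp1 and Dusp2 stand apart at 303 to 369.6 TPM, and the open circles of Dusp1 fall to 28.8 and 46.3 TPM, below those of Dusp2.

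Most of the signal assigned to Dusp1 was in transcripts that keep an intron. Dusp1-203, which keeps intron 2 and lacks introns 1 and 3, held 5798 and 8922 counts, or 202 and 183 TPM. Dusp1-204, a shorter model that lacks intron 2 and keeps intron 3, held 1151 and 2117 counts, or 135 and 141 TPM. The full-length protein-coding transcript Dusp1-202 held 637 and 1879 counts, or 26.2 and 45.3 TPM. As shares of the TPM of the gene, Dusp1-203 took 55.2% and 49.4%, Dusp1-204 took 36.9% and 38.1%, and Dusp1-202 took 7.18% and 12.3%. Both retained-intron transcripts exceeded Dusp1-202 in each library.

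Together the retained-intron transcripts took 91.0% of the Dusp1 counts in replicate 1 (95% Wilson interval 90.4% to 91.7%) and 85.2% in replicate 2 (84.6% to 85.8%). The intervals do not overlap, and they cover counting error only, not how reads were assigned to transcripts. In the table quantified without alignment (the alignment-free table) the shares were 84.2% and 81.3%, each below the interval for its library. Retained-intron transcripts are annotated for 6881 protein-coding genes that had 10 or more counts in each library, of which 104 had a higher mean share than Dusp1, and the median was 17.4%. A mean share of 50% or more was reached by 1 of the 3 members with such a transcript, against 14.9% of those 6881 genes. Neither retained-intron model of Dusp1 holds the whole of intron 1, which has 237 bases, so reads from within that intron have no such model to fall in.

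Dusp2 has the annotated retained-intron transcript Dusp2-202, which keeps intron 2, the intron at the same place in the gene as that kept by Dusp1-203, and ends a short way into intron 3. It held 1080 and 2030 counts, or 146 and 155 TPM, beside 3014 and 6825 counts, or 157 and 207 TPM, for the protein-coding Dusp2-201. Its share of the Dusp2 counts was 26.4% (95% Wilson interval 25.1% to 27.8%) in replicate 1 and 22.9% (22.1% to 23.8%) in replicate 2. By TPM its share was larger, 48.2% and 42.7%, since TPM divides by length and Dusp2-202 has 756 bases against 1617 for Dusp2-201. Of the 6881 genes, 2645 had a higher mean share of counts. In the alignment-free table the share of counts was 26.4% and 25.0%, of which the second lies above the interval for replicate 2.

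Dusp16, the remaining member with an annotated transcript of this type, had 0 counts on it in both libraries, which by counting error alone allows up to 3 counts each. The other 7 members have none, so reads from their introns have no such transcript to be assigned to, and their unspliced RNA was not measured. Mature RNA that keeps an intron of Dusp1 or Dusp2 and RNA still awaiting splicing cannot be told apart in these tables.

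**Figure D2:**
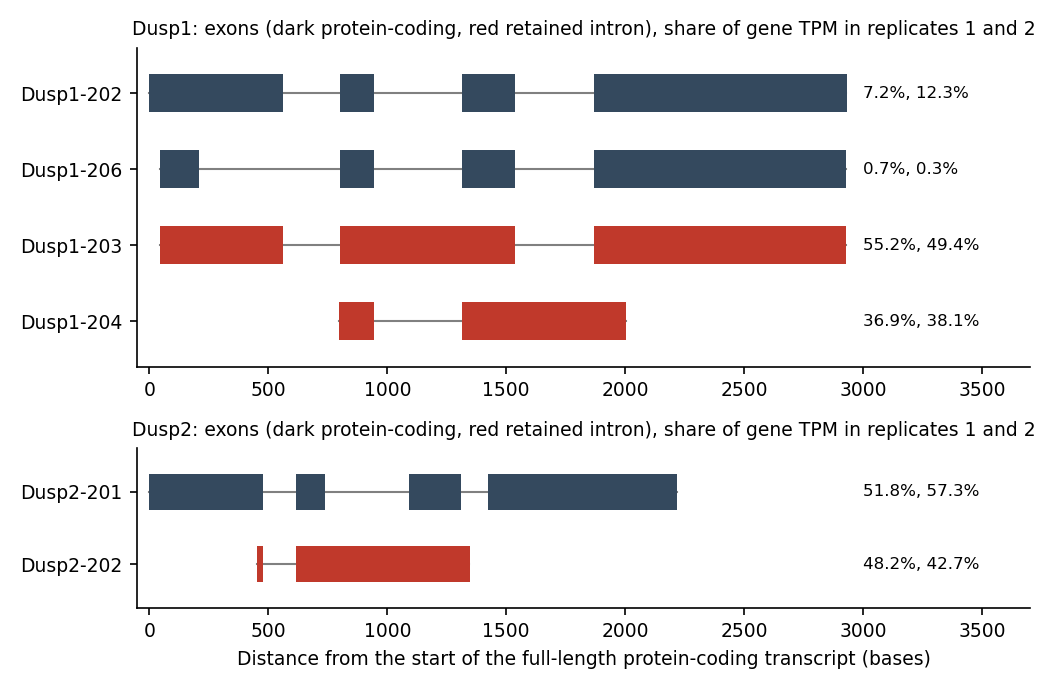
Exons (boxes) of the Dusp1 and Dusp2 transcripts that start near the full-length one, drawn by distance in bases from its start, dark for protein-coding and red for retained-intron types. The numbers at the right are each transcript's percent of the gene's TPM in replicates 1 and 2. Intron 2 is filled in Dusp1-203 and in Dusp2-202, and intron 3 in Dusp1-204.

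The order of the top genes depends on which transcripts are summed. Over protein-coding transcripts alone, a sum chosen after the values were seen, Dusp2 had 157 and 207 TPM and Dusp1 had 28.8 and 46.3 TPM. Dusp2 then exceeded Dusp1 by 4.97 ± 0.698 times within a library (SD, n = 2). The size of this gap depends on how reads were assigned to transcripts. In the alignment-free table it was narrower, with 84.1 and 40.9 TPM for Dusp2-201 and 24.2 and 11.2 TPM for Dusp1-202. Without division by length the order of this pair was the deposited one and the gap wider: Dusp1 had 1.86 and 1.46 times the counts of Dusp2. In the aligned table Dusp1 therefore ranked first by counts and by TPM of all transcripts, and second by TPM of protein-coding transcripts. In replicate 2 of the alignment-free table Dusp2 was the higher by TPM of all transcripts, at 74.7 against 74.1.

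Dusp1 also has a pair of annotated transcripts that begin far upstream, Dusp1-205 with a span of 56538 bases and Dusp1-201. Both had 0 counts in the aligned table, which by counting error alone allows up to 3 counts in each library. That limit leaves out how reads were assigned among transcripts that share exons. In the alignment-free table Dusp1-205 had 40.1 and 5.22 counts and Dusp1-201 had 1.00 and 2.00, against 12721 and 15743 for the gene. All Dusp1 counts of the aligned table thus lay in the other models. The annotated span of 56539 bases comes from these upstream exons, while Dusp1-202 spans 2930.

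Dusp1-202 and Dusp2-201 have the shortest spans of the protein-coding transcripts examined, 2930 and 2218 bases, with 940 and 601 bases of intron. The low genes Dusp6, Spry1 and Spry2 were also compact, at 4258, 4519 and 4873 bases. Dusp4 and Dusp5 spanned 12598 and 13323 bases. Dusp10, Dusp16 and Spred1 spanned 41256, 53839 and 60906 bases. Short genes thus stood at both ends of the order of levels.

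Among the remaining genes, transcript shares moved most between the libraries in Dusp6 and Spry1, which had few counts. Dusp16 was split between Dusp16-204, a model with 4 exons, at 47.4% and 45.7% of its TPM, and the longer Dusp16-201 at 39.9% and 47.0%. Which of these led differed between the libraries. The last exon of Dusp16-204 runs past exon 4 of Dusp16-201 into its intron, so reads from that intron can count towards it. Spred1-201 held 75.3% and 70.0% of the TPM of Spred1, with Spred1-202 holding the rest. Dusp4, Dusp5 and Spry2 have 1 annotated transcript each.

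For Dusp6, Dusp6-204 led in replicate 1 with 53.6% of TPM and Dusp6-201 in replicate 2 with 84.5%. These shares rest on 33.7 and 13.4 counts for Dusp6-204 and 20.2 and 87.6 counts for Dusp6-201. For Spry1, Spry1-202 had 100% of TPM in replicate 1 and 38.8% in replicate 2, on 17.2 and 14.4 counts. Dusp10-201 held 100% and 93.5% of the TPM of Dusp10. In the alignment-free table the leading transcript was the same for 9 of 10 members, Dusp6 being the exception.

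**Figure D3:**
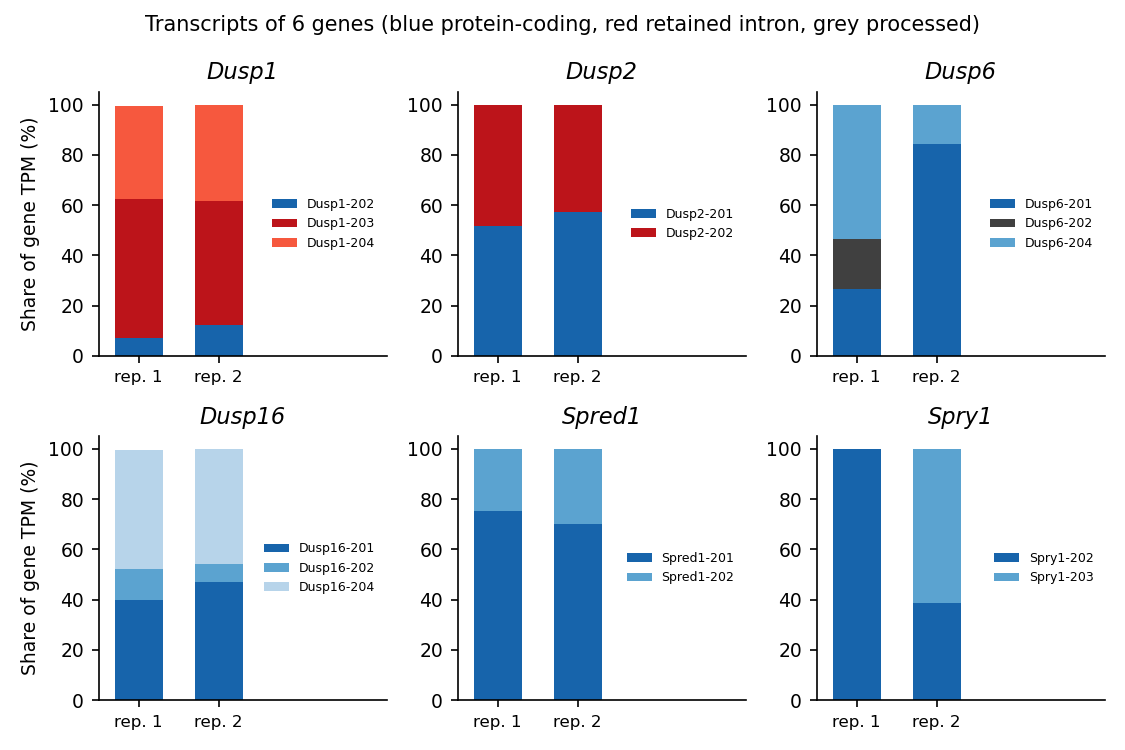
Stacked bars of each transcript's percent of the gene's TPM in replicates 1 and 2 for 6 genes, leaving out transcripts under 1% in both. Retained-intron transcripts (red) fill most of Dusp1 and somewhat under 50% of Dusp2, and the leading transcript of Dusp6 and of Spry1 changes between the libraries.

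The libraries were compared gene by gene as the log2 ratio of TPM + 1 in replicate 2 over replicate 1, with 1 library on each side and no test. The median ratio of 14584 genes with at least 10 counts in both was -0.42, so ratios are also given relative to it. None of the 10 members was past 2-fold in either direction, where 0.357% of all genes were past it upward and 3.55% downward. None was past 2-fold relative to the median, where 1.22% of all genes were past it upward and 0.487% downward. With a pseudocount of 0.1 TPM in place of 1, Spry2 was past 2-fold downward at -1.06, as were 12.3% of all genes. Dusp4 had 0.30 and Dusp2 0.26, the highest of the members, or 0.72 and 0.68 relative to the median. Dusp1 had 0.015 and Spred1 0, or 0.44 and 0.42 relative to the median. Spry2 had -0.73 and Dusp5 -0.69, the lowest, or -0.30 and -0.26 relative to the median. In all, 7 of 10 members lay above the median of all genes, Spry2, Dusp5 and Dusp16 being below it. With a pseudocount of 0.1 TPM 6 of 10 did, and Dusp10 was then also below it, at -0.89 against a median of -0.54.

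In the alignment-free table every member had a lower TPM in replicate 2 than in replicate 1, as did most genes, whose median ratio was -1.19. Past 2-fold downward there were 4 of 10 members, Dusp5 at -1.72, Dusp1 at -1.37, Dusp2 at -1.11 and Spry2 at -1.06, against 60.4% of all genes. Dusp1 had 194 and 74.1 TPM there and Dusp2 had 163 and 74.7, so the order of this pair turned round in replicate 2. Relative to that median, a step chosen after the values were seen, Dusp1 stood at -0.19, Dusp2 at 0.076, Dusp4 at 0.31 and Dusp5 at -0.53. Spry1 was highest at 1.08 and the 1 member of 10 past 2-fold, as were 2.71% of all genes upward. Its TPM there fell from 0.196 to 0.111, and the added 1 TPM held its ratio to -0.11 before the median was taken off. That value is therefore no sign of a higher level in replicate 2. Dusp1 thus lay above the median in the one table and below it in the other.

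**Figure D4:**
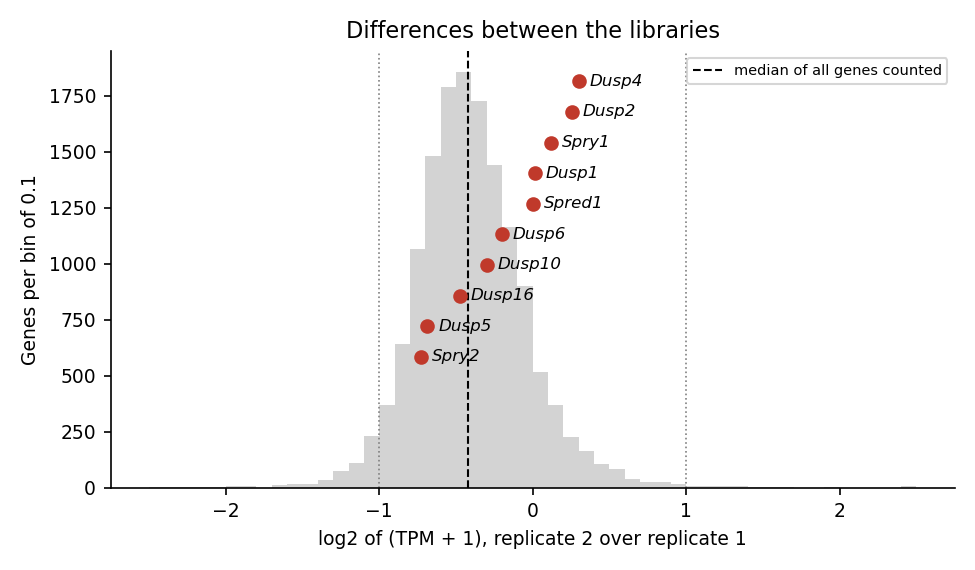
Histogram (grey) of the log2 ratio of TPM + 1, replicate 2 over replicate 1, for 14584 genes in bins of 0.1, with values past 2.5 drawn at the edge, the median dashed and 2-fold dotted. The members (red, at arbitrary height) lie between -0.73 for Spry2 and 0.30 for Dusp4, none past 2-fold on this scale.

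The promoters of 9 of the 10 genes were matched by symbol in RefSeq sequences of GRCm38.p6, each from 250 bases before to 50 bases after the start site. Dusp4 had no match, so its promoter was not searched. The promoters of 4 phosphatase genes are shown, those of the high genes Dusp1 and Dusp2, of Dusp5 and of the low gene Dusp6, because the members differ so widely in level. Capitals mark matches on either strand to TGACG, the core of a cyclic AMP response element (CGTCA on the other strand), to the full palindrome TGACGTCA, which contains it, and to the CArG box bound by serum response factor.
Dusp1, chr17:26508423-26508722, minus strand: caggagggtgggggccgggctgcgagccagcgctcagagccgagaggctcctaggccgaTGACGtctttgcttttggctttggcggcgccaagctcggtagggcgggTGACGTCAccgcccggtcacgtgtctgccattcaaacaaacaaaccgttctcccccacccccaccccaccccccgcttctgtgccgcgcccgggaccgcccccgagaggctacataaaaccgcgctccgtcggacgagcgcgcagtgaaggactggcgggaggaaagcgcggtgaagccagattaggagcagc
Dusp2, chr2:127335909-127336208, plus strand: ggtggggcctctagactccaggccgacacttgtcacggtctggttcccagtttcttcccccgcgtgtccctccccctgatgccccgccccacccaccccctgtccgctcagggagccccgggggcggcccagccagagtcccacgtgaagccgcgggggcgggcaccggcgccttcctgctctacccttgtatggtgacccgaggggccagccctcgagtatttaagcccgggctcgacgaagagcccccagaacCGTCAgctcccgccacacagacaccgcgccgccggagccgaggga
Dusp5, chr19:53528895-53529194, plus strand: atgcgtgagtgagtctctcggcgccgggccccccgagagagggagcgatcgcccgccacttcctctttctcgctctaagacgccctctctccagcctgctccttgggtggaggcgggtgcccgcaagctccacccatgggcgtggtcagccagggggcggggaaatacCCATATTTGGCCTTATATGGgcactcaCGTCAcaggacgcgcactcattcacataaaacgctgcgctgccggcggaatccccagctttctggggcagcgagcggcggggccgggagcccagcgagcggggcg
Dusp6, chr10:99262981-99263280, plus strand: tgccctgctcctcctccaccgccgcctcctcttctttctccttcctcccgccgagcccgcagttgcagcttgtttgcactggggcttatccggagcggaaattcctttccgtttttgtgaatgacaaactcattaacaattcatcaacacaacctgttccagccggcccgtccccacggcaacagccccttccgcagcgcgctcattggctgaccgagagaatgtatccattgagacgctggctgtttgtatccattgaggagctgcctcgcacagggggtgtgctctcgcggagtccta

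The Dusp1 promoter held TGACGTCA beginning 143 bases before the start site and a further TGACG beginning 191 bases before it. Of 32851 RefSeq promoters of the same length, 1.79% held TGACGTCA and 20.8% held TGACG. The Dusp5 promoter held a pair of CArG boxes end to end, 82 and 72 bases before the start, a motif present in 1.63% of all promoters. TGACG was also found in Dusp2, Dusp5 and Dusp16, which makes 4 of the 9 promoters. The motif CACGTG was found in 2 of 9, Dusp1 and Dusp2, and in 7.15% of all promoters. The AP-1 motif TGANTCA (7.81% of all promoters), the NF-kB site (8.46%) and TATAAA (13.6%) were found in none of the 9, each on both strands. A match describes letters in this window and not binding.

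The annotated 3′ untranslated regions of the same protein-coding transcripts were searched for ATTTA, the pentamer of the AU-rich elements that mark many early response mRNAs for rapid decay. Dusp2 had 4 in 581 bases, or 6.88 per 1000 bases, and Dusp1 had 4 in 690 bases, or 5.80 per 1000 bases. These were above 97.2% and 95.5% of 9061 detected protein-coding genes, whose median was 1.37 per 1000 bases. Dusp16 followed with 9 in 2226 bases, or 4.04 per 1000 bases, in the model Dusp16-204, whose last exon is largely intronic in Dusp16-201. Dusp5 and Dusp6, with 1 each, had 0.902 and 0.841 per 1000 bases, under the median of all genes. The longer TATTTAT was present in Dusp1, Dusp2, Dusp16, Spry1, Spry2 and Spred1, 6 of 10 members, and in 29.4% of all these genes.

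Of 62 other genes of the pathway 53 were detected at 1 TPM, and none reached the level of Dusp1 or Dusp2 over all transcripts in either library. Over protein-coding transcripts alone Dusp1 had 28.8 and 46.3 TPM, a sum that is not given here for the other pathway genes. The members had a median log2(TPM + 1) of 3.06 ± 0.17, against 0.67 ± 0.22 for all protein-coding genes (SD, n = 2). Of the list labelled other MAP kinase phosphatases, which takes in related genes such as Styx, 6 of 9 were detected, with a median of 1.79 ± 0.20. Dusp3, which encodes a small phosphatase of ERK and JNK, led at 31.7 ± 8.64 TPM, with both its values above those of Dusp4. Dusp22 followed at 8.73 ± 2.71 TPM, and Dusp14 and Dusp9 were lowest at 0.455 ± 0.304 and 0.0400 ± 0.0283 TPM.

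Of the other Sprouty and Spred genes 2 of 4 were detected, Spred3 at 2.40 ± 0.608 TPM and Spred2 at 1.36 ± 0.0566 TPM, while Spry3 and Spry4 had 0.210 ± 0.226 and 0.0550 ± 0.0636 TPM. All 4 were below both values of Spred1.

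Of the MAP kinases, the substrates of these phosphatases, 6 of 10 were detected, with Mapk14 (p38 alpha) highest at 39.7 ± 6.11 TPM. Mapk10 and Mapk13, lowest at 0.195 ± 0.148 and 0.155 ± 0.120 TPM, were not among the detected. Of the kinases above them 15 of 15 were detected, led by Map3k8, which relays TLR4 signals to ERK, at 57.9 ± 6.05 TPM and Araf at 43.3 ± 11.7, with Map3k5 and Map2k6 lowest at 7.16 ± 0.297 and 1.12 ± 0.0919 TPM.

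Of the MAP kinase effectors 13 of 13 were detected. Mapkapk2, which encodes a p38-activated kinase, was at 52.2 TPM in the first library and 105.9 TPM in the second, and Mknk1 had 75.9 ± 8.49 TPM. The lowest were Srf, which encodes the factor that binds CArG boxes, at 5.63 ± 0.467 TPM and Rps6ka5 at 2.60 ± 0.990 TPM. Of the Ras and receptor adaptor genes 11 of 11 were detected, with Grb2 at 51.9 ± 17.8 and Cbl at 49.8 ± 18.8 TPM highest and Sos1 at 4.83 ± 1.91 and Hras at 2.70 ± 1.78 TPM lowest.

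**Figure D5:**
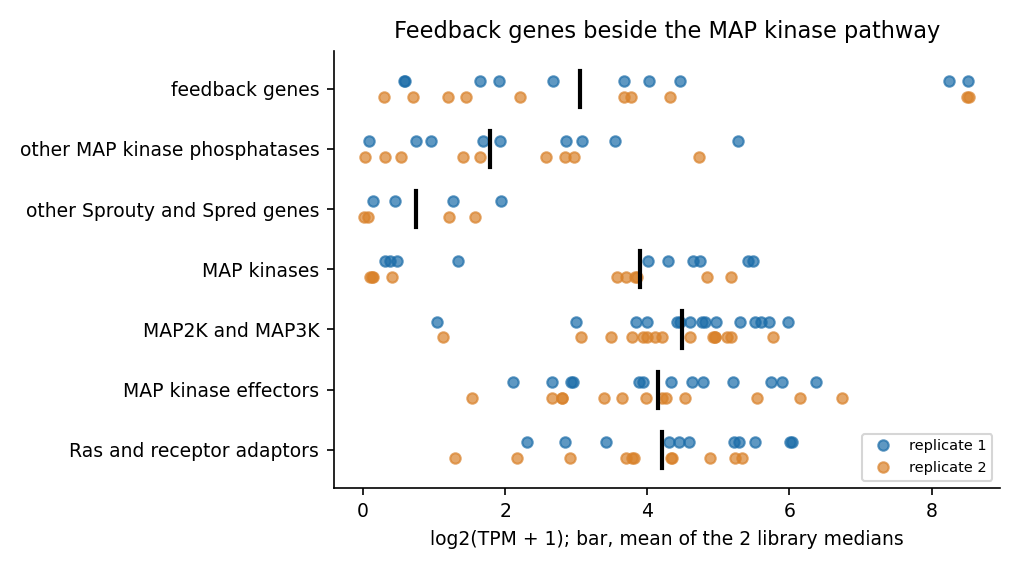
Each point is a gene's log2(TPM + 1) in replicate 1 (blue) or replicate 2 (orange), by list, with a black bar at the mean of the library medians. The 10 feedback genes span the widest range, with Dusp1 and Dusp2 at the far right and a median of 3.06.

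The gene tables held 13506939 and 17932332 estimated counts on annotated genes. Of 9 macrophage markers 9 were detected, with summed levels of 4304 and 3541 TPM. Of 30 markers of other cell types 3 were detected, Pf4, S100a9 and Ngp, and apart from Pf4 none exceeded 2.71 TPM. Ly6g, Cd3e and Hbb-bs were at 0 in both libraries.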

How the data were processed

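Per the deposited readme, the authors quantified each library against assembly mm10 with annotation M21, once from an alignment to the transcriptome and once without alignment. Program names, versions and the use of strand were not given in the labels or the readme. Estimated counts, TPM and the percent of the gene's TPM in each transcript were used as deposited by the authors. Gene names, types and exons came from GENCODE M21. Count totals cover annotated genes alone, and TPM was not rescaled. Genes overlapping a member, such as the antisense gene AC137853.2 at Dusp5 with 11.2 and 18.4 counts and Ergic1 at the upstream exons of Dusp1, can share reads with it. On the strand opposite Spry1, Gm42922 had 10.8 and 3.74 counts, against 17.2 and 34.3 for Spry1. Opposite Dusp10, 1700056E22Rik had 4 and 5 counts, against 18 and 13 for Dusp10.

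With 1 group no test or p-value was possible. Neighbours in level were called apart where their ranges did not overlap. Ratios were taken over genes holding 10 or more counts per library, with a pseudocount of 1 TPM. For the pathway lists the 2 highest and 2 lowest genes are named, except for 1 gene that is not reported here. The members and lists were chosen with earlier results of these data known. Alternatives were TPM rescaled after removal of the mitochondrial chromosome and of genes shorter than 200 bases, CPM, other thresholds, TMM factors (edgeR 4.0.16) and size factors (DESeq2 1.42.0) on rounded counts, and the alignment-free table. Motifs and exons were read with Python 3.11.15. A count of 0 was read as allowing 3 counts, which covers counting error and not the assignment of reads to transcripts. Intervals cover counting error only.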

Additional observations from a re-analysis of the deposited data

How the results depend on the processing

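The median level of the 10 members, 3.06 as log2(TPM + 1), was 2.11 in the alignment-free table, 3.52 with rescaled TPM and 4.83 in CPM, and 2.94 to 3.17 in single libraries. At 5 TPM in both libraries 5 of the 10 members were detected in place of 8, as were 6294 of 22028 protein-coding genes in place of 9806. The retained-intron share of all member counts was 54.3% ± 3.77 (SD, n = 2), 63.7% as a share of TPM and 50.7% in the alignment-free table. Without either replicate it ranged from 51.6% to 56.9%. Most of these retained-intron counts were of Dusp1, at 6949.5 and 11038.5, against 1080.1 and 2030.0 for Dusp2. Dusp16 had 0 and the other 7 members have no such transcript, so the share does not describe the members as a set. The members' median ratio of replicate 2 to replicate 1 was -0.10, and -0.15 with a pseudocount of 0.1 TPM and -0.91 in the alignment-free table. It was 0.32 minus the median of all genes, 0.56 with TMM, 0.58 with DESeq2 size factors and 0.27 in the alignment-free table minus its median, which was chosen once the data had been seen. The cause was not tested. Genes past 2-fold numbered 52 higher and 518 lower in replicate 2 as deposited, 178 and 71 minus the median, 478 and 281 with TMM, 502 and 262 with DESeq2, 85 and 1789 with the smaller pseudocount, 301 and 1011 with no minimum count, and 15 and 13912 in the alignment-free table (623 and 694 minus its median). Of the members 0 were past it as deposited, 1 was lower with the smaller pseudocount, 4 were lower in the alignment-free table and 1 was higher there minus its median. The last was Spry1, which lay under 1 TPM, where the pseudocount sets most of the ratio. With TMM and with DESeq2 size factors 0 members were past 2-fold, a log2 ratio of 1, but the highest came close to it. These were Dusp2, at 0.95 with TMM and 0.97 with DESeq2, and Dusp4, at 0.92 and 0.94. Members above the median of all genes numbered 7 as deposited, with TMM and with DESeq2, 6 with the smaller pseudocount or no minimum count, and 8 in the alignment-free table. Which members these were also changed. With TMM Dusp10 was below the median of 0.033, at -0.63, and Dusp16 was above it, at 0.056. No ratio can be had without either replicate. No paired analysis was possible because there is 1 group.

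Of the 45 pairs of members, 42 to 44 kept their order in CPM, in the alignment-free table, in single libraries and over protein-coding transcripts. With 2 libraries the SDs are rough, and shares of transcripts of Dusp6, Spry1 and Dusp10 rest on about 100 counts or fewer.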
